A study of Rattus norvegicus with 24 samples.

Results

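Mt1 encodes metallothionein 1, and the values below are its RNA in the liver of 24 rats given 1 of 6 compounds. It is 1 of 15337 genes or gene models the array names, and it was measured by 3 of the 21889 probes analysed, all named by its older symbol Mt1a in the scanner files. The gene was taken up because its log2 ratios of treated over vehicle RNA on these same arrays were already known to be large and to differ in direction between compounds. Its levels and ratios are therefore given as a description, with no test. In short, on the brightest of these probes the 4 rats given 1,2-Dichlorobenzene averaged 4.32-fold the Mt1 signal of vehicle RNA and those given 1,2,3-Trichloropropane 3.99-fold. The 4 given Hexachloroethane averaged 1.83-fold below vehicle on it. Between these extremes, 1-Amino-2-methylanthraquinone and Tetracycline hydrochloride averaged 2.02-fold and 1.81-fold above vehicle with wide scatter between rats. The compound 3-(4-Chlorophenyl)-1,1-dimethylurea, known as monuron, averaged 1.27-fold below vehicle. A dimmer probe of another sequence read Hexachloroethane 1.04-fold and monuron 2.39-fold below vehicle. It read 1,2-Dichlorobenzene 2.81-fold, 1,2,3-Trichloropropane 1.73-fold, 1-Amino-2-methylanthraquinone 1.12-fold and Tetracycline hydrochloride 1.05-fold above vehicle. Its treated signal was well above background on 1 of 4 arrays with Hexachloroethane.

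Metallothioneins are small cysteine-rich proteins that hold zinc and copper and bind cadmium when it is present. In liver the gene is switched on by the zinc-sensing factor Mtf1, which binds metal response elements in its promoter, and it also answers to glucocorticoids, to inflammatory cytokines and to oxidative stress. Zinc reaches hepatocytes through importers of the Slc39a family and leaves through exporters of the Slc30a family, so these genes are the ones most often read beside Mt1.

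The study asked how the liver transcriptome of rats differs after carcinogens and non-carcinogens. Male F344 rats, 5 weeks old, received a compound daily by gavage for 28 days in 5 ml/kg of vehicle, with 4 rats per compound. The daily doses were 500 mg/kg Hexachloroethane, 150 mg/kg 1-Amino-2-methylanthraquinone, 50 mg/kg 1,2,3-Trichloropropane, 250 mg/kg monuron, 300 mg/kg 1,2-Dichlorobenzene and 1000 mg/kg Tetracycline hydrochloride. Corn oil was the vehicle for all but Tetracycline hydrochloride, which was dissolved in water. The series names the first 4 as carcinogens and the last 2 as non-carcinogens. Each array held RNA of 1 treated rat in the Cy3 channel and a pool of vehicle RNA from 4 control rats in the Cy5 channel, with no dye swap. The pool is 1 control sample, so the spread between control rats is left out of every value against vehicle. Arrays that shared 1 scan time in the file headers are called a slide here, which is inferred from that time. Doses, vehicles and slides differ between compounds, so the compounds are set side by side and not ranked as equals.

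The 3 probes had 2 spots each on every array and held 2 different sequences. They are shown because the sequences gave different values. Probes 14118 and 4118 were the same sequence of 60 bases with a GC content of 43.3%, and probe 704782 was another with 40.0%. The first 30 bases of each, 5′ to 3′ as the scanner files give them, were:
Probes 14118 and 4118: tgtaaataatttccggaccaactcagagtc
Probe 704782: atctgagttgagacccagttgttactaacc
The longest run that the shared sequence had in common with a probe of another gene was 14 bases, and for probe 704782 it was 12 bases. No transcript sequence was used here, so the place of either probe in the Mt1 transcript is not stated. Probe 14118 was the brightest and stands for Mt1 below unless another is named. It was well above background in both channels on 24 of 24 arrays, and none of its spots was saturated or marked as an outlier. Its duplicate 4118 differed from it by at most 0.16 on the log2 scale and had the same sign in 24 of 24 rats. The SD over the 4 spots of this sequence within an array had a median of 0.02 (log2), and its highest value was 0.13 in rat 1 of Tetracycline hydrochloride.

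The stretch before the start of Mt1 is shown because it carries the sites by which the gene is known to sense metals. RefSeq places it in the build GRCr8 on the minus strand at chr19:10832976-10833225, the 250 bases before the start, with a GC content of 66.4%. It reads 5′ to 3′:
Mt1 promoter: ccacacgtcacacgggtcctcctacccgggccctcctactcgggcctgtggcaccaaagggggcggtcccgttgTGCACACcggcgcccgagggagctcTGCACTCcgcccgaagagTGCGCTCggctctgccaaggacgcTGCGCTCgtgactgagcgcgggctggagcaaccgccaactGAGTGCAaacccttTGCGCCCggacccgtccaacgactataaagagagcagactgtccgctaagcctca
The capitals mark every match, on either strand, to the core of the metal response element, searched as TGCACNC or TGCGCNC. There were 6 matches, the farthest 176 to 170 and the nearest 55 to 49 bases before the start, and the match 69 to 63 bases before it lay on the opposite strand. Of 33469 RefSeq promoters of the same length, 6883 (20.6%) held at least 1 such core and 9 (0.0269%) held 6 or more. The antioxidant response core, searched as TGACNNNGC, had 1 match at 101 to 93 bases before the start, overlapping none of the metal cores, and 10.1% of promoters held at least 1. The letters TATAAA stood 32 to 27 bases before the start, as they did somewhere in 12.9% of promoters. The glucocorticoid response element, searched by its palindromic consensus, had no match in these letters, and 0.373% of promoters held it. A match is a description of letters and does not show that a factor bound there.

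Across the arrays, the share of probes well above background was 59.8% to 71.8% for treated RNA and 64.2% to 75.9% for vehicle RNA, and 0 to 74 spots per array were marked as outliers. No slide carried more than 1 compound, and the effects of slide and compound cannot be told apart. Scanning took 4 days, and 2 of them covered a pair of compounds: monuron and 1,2-Dichlorobenzene on one, Hexachloroethane and Tetracycline hydrochloride on the other. On the array of rat 2 of Hexachloroethane the median log2 ratio before loess was -0.18, against -1.22 to -0.81 on the others, and in rat 1 of Tetracycline hydrochloride the deposited ratios of the series table correlated with the scanner's at 0.685. All 8 hepatocyte markers measured, among them Alb (albumin), Ttr (transthyretin) and Apoa1 (apolipoprotein A1), were well above background on all arrays. Liver tissue is a mixture, and fewer cells of a type cannot be told apart from less RNA per cell.

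In rats given 1,2-Dichlorobenzene the log2 ratio of Mt1 was 2.32, 2.04, 2.17 and 1.92 in rats 1 to 4. All 4 rats lay well above vehicle and close to each other, with a mean of 2.11 ± 0.17 (SD, n = 4). Leaving out any 1 rat kept the mean between 2.04 and 2.17. In rats given 1,2,3-Trichloropropane the ratio was 2.09, 0.91, 2.36 and 2.62, with a mean of 1.99 ± 0.75 (SD, n = 4). All 4 were above vehicle, and rat 2 stood below the other 3, whose mean without it was 2.36. The 4 rats of 1,2-Dichlorobenzene lay inside the range of the 1,2,3-Trichloropropane rats, so the order of these compounds is not resolved.

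In rats given 1-Amino-2-methylanthraquinone the log2 ratio of Mt1 was 0.86, 0.97, 0.08 and 2.13, with a mean of 1.01 ± 0.85 (SD, n = 4). Rat 4 was high and rat 3 was level with vehicle, so the SD was almost as large as the mean. Without rat 4 the mean was 0.64, and without rat 3 it was 1.32. In rats given Tetracycline hydrochloride the ratio was 1.19, 1.46, 0.87 and -0.11, with a mean of 0.85 ± 0.69 (SD, n = 4). Only rat 4 was not above vehicle, and the mean without it was 1.17. The ranges of these compounds overlapped widely.

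Monuron gave Mt1 log2 ratios of -0.26, -0.66, -0.26 and -0.18, with a mean of -0.34 ± 0.22 (SD, n = 4). Hexachloroethane gave -1.13, -0.98, -0.90 and -0.48, with a mean of -0.87 ± 0.28 (SD, n = 4). All 8 of these rats lay below vehicle, and the highest rat of Hexachloroethane lay above the lowest rat of monuron. In the order of the 6 means, from 1,2-Dichlorobenzene down to Hexachloroethane, each neighbouring pair overlapped except Tetracycline hydrochloride and monuron. Those were separated by 0.07, between rat 4 of the first and rat 4 of the second. The 4 carcinogens had means from -0.87 to 1.99 and the 2 non-carcinogens 0.85 and 2.11, so the classes overlapped.

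**Figure D1:**
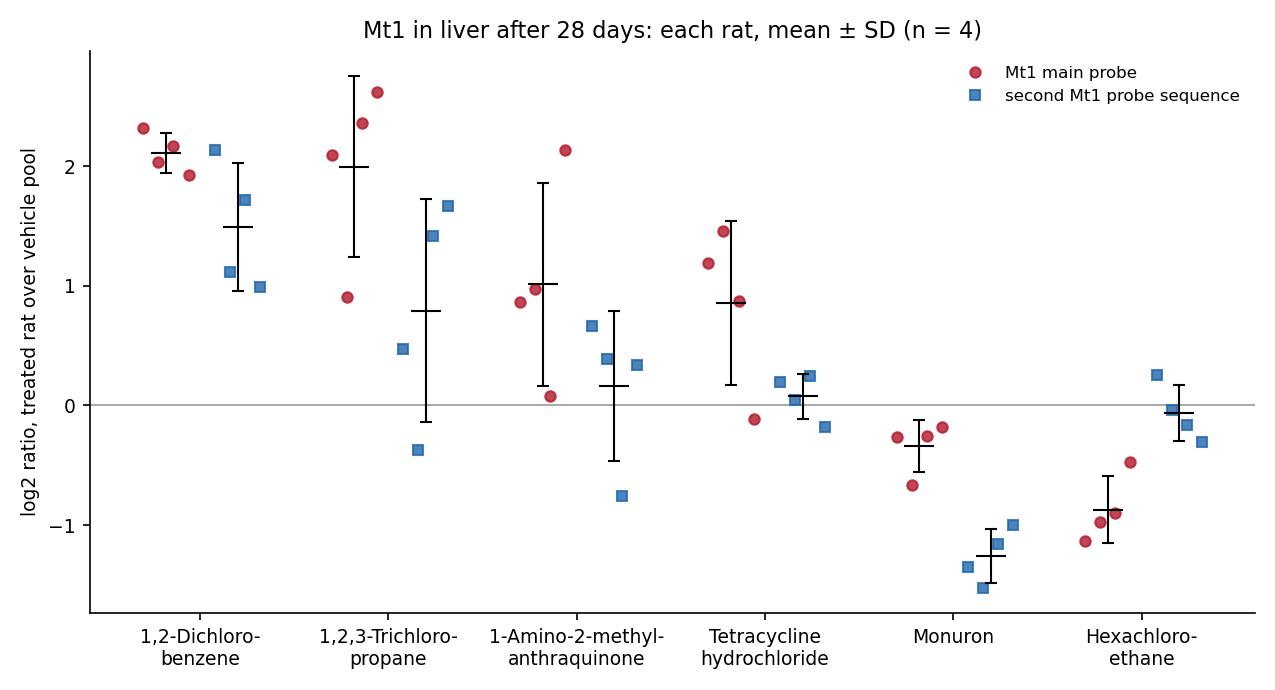
Log2 ratio of Mt1, treated over vehicle, in each of 24 rats by compound, for the main probe and for probe 704782; points are rats and the bars are means with SD. The 4 rats of 1,2-Dichlorobenzene lie between 1.92 and 2.32 on the main probe, and those of Hexachloroethane between -1.13 and -0.48.

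A ratio joins both channels, so a log2 level of each channel was also taken, after loess and scaling between arrays. These steps use both dyes, so a treated level is not wholly free of the vehicle channel. The treated level was 15.64, 15.36, 15.50 and 15.27 with 1,2-Dichlorobenzene and 15.15, 13.91, 15.45 and 15.75 with 1,2,3-Trichloropropane. With Tetracycline hydrochloride it was 14.88, 15.06, 14.40 and 13.44, and with 1-Amino-2-methylanthraquinone 14.17, 13.98, 13.23 and 15.43. These 4 compounds formed an overlapping run, with means of 15.44 ± 0.16, 15.07 ± 0.81, 14.44 ± 0.72 and 14.20 ± 0.91 (SD, n = 4 each). The treated level with monuron was 13.59, 13.10, 13.49 and 13.61, a mean of 13.45 ± 0.24 (SD, n = 4). With Hexachloroethane it was 11.53, 11.72, 11.77 and 12.18, a mean of 11.80 ± 0.27 (SD, n = 4). Hexachloroethane rats lay below all 20 others, 0.92 under the lowest rat of monuron, where the ratios of these compounds had overlapped. Tetracycline hydrochloride also changed places with 1-Amino-2-methylanthraquinone, though both their orders lay within the spread of the rats.

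The unscaled mean signals of the treated channel showed the same spread on a linear scale. Before loess the median log2 ratio of all probes was -1.22 to -0.18, so the vehicle channel read brighter on every array. The treated channel read 23455 to 29297 with 1,2-Dichlorobenzene and 7797 to 31012 with 1,2,3-Trichloropropane. It read 4692 to 18080 with 1-Amino-2-methylanthraquinone, 6694 to 20663 with Tetracycline hydrochloride and 5882 to 8010 with monuron. With Hexachloroethane it read 2170 to 3331, still above a local background that was 296 on the array of rat 1. Unscaled means of the treated and vehicle channels were 27014 and 17663 with 1,2-Dichlorobenzene and 19760 and 15353 with 1,2,3-Trichloropropane. They were 9788 and 16608 with 1-Amino-2-methylanthraquinone and 14454 and 23448 with Tetracycline hydrochloride, so there treated read lower before the dyes were balanced. With monuron they were 7079 and 25228, and with Hexachloroethane 2606 and 12763.

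The vehicle channel did not carry the same Mt1 level on the 6 slides. On the slide of Hexachloroethane the vehicle level of Mt1 was 12.66, 12.70, 12.67 and 12.66, a mean of 12.67 ± 0.02 (SD over 4 arrays). On the slide of monuron it was 13.86, 13.76, 13.75 and 13.79, a mean of 13.79 ± 0.05 (SD over 4 arrays). The others averaged 13.07 ± 0.05 for 1,2,3-Trichloropropane, 13.19 ± 0.14 for 1-Amino-2-methylanthraquinone, 13.34 ± 0.01 for 1,2-Dichlorobenzene and 13.59 ± 0.07 for Tetracycline hydrochloride. Slide means therefore ranged over 1.12, against a median of 0.35 over all 11507 genes, and 2.75% of genes had a range at least that wide. Within a slide the 4 vehicle readings of Mt1 varied little, with a pooled SD of 0.07 against a median of 0.06 over all genes. Whether the corn oil slides shared 1 vehicle pool is not given, so a difference between pools, slides and scans cannot be told apart here. Each ratio above is read against its own slide's vehicle, which was lowest beside Hexachloroethane and highest beside monuron.

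**Figure D2:**
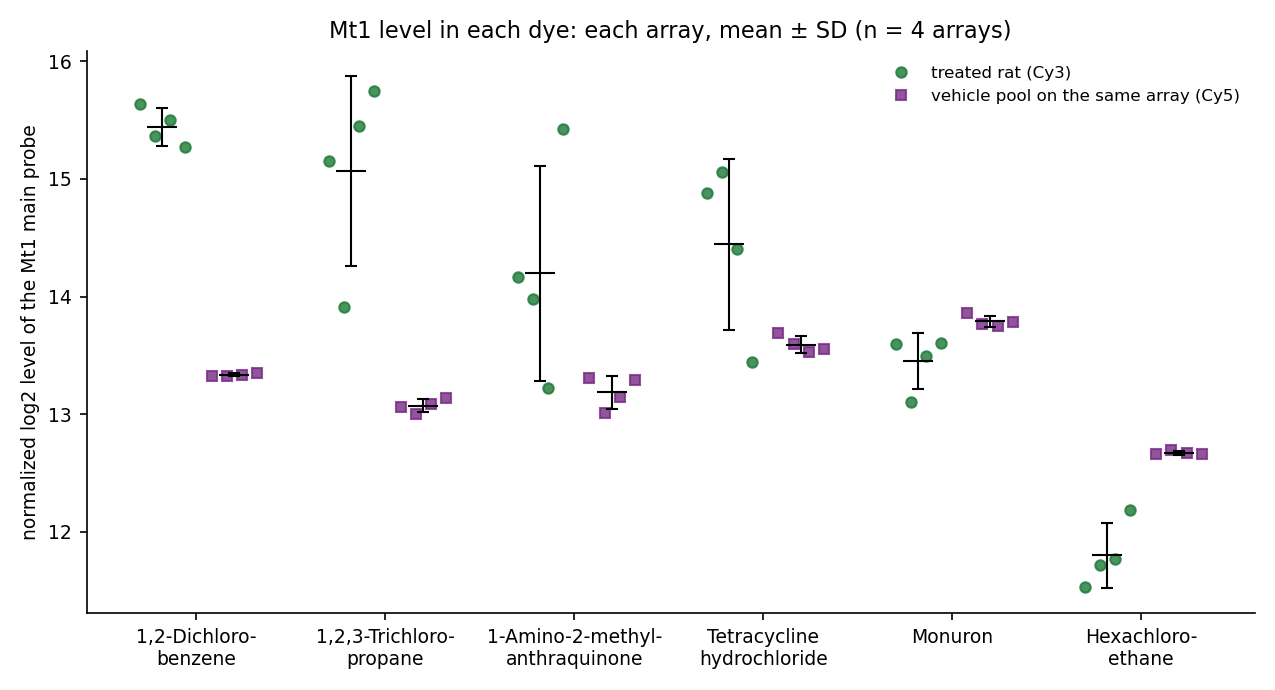
Log2 level of Mt1 in the treated and the vehicle channel of each of 24 arrays, by compound, after scaling between arrays. Vehicle levels lie close together within a slide and shift between slides, from a mean of 12.67 beside Hexachloroethane to 13.79 beside monuron, and treated levels of Hexachloroethane, 11.53 to 12.18, are the lowest.

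Compounds scanned on the same day could be set against each other within that day. Hexachloroethane minus Tetracycline hydrochloride was -1.72 in mean log2 ratio and -2.64 in mean treated level. 1,2-Dichlorobenzene minus monuron was 2.45 in mean log2 ratio and 2.00 in mean treated level. Each compound was scanned on 1 day, so these are differences of the same means and no further check of their direction.

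Probe 704782 gave smaller and partly different values. It was far dimmer, with mean treated levels of 6.91 to 9.68 by compound against 11.80 to 15.44 on the main probe. An offset of 50 added to the signals narrows the ratios of dim probes. The array describes this probe as Unknown and the other sequence as Metallothionein. Its vehicle level was lowest beside Tetracycline hydrochloride, a mean of 6.93, while that of the main probe was lowest beside Hexachloroethane. Its treated signal was well above background on 18 of 24 arrays, among them 1 of 4 with Hexachloroethane. Over 24 rats its log2 ratio correlated with that of the main probe at r = 0.77 (rho = 0.76), it had the same sign in 21 of 24, and the largest difference was 1.79. With 1,2-Dichlorobenzene it read 2.13, 1.12, 1.71 and 0.99, a mean of 1.49 ± 0.53 (SD, n = 4), above vehicle in every rat as on the main probe. With 1,2,3-Trichloropropane it read 0.47, -0.38, 1.41 and 1.66, and rat 2 was again the lowest. With monuron it read -1.35, -1.52, -1.16 and -1.0, a mean of -1.26 ± 0.23 (SD, n = 4), farther below vehicle than on the main probe. With Hexachloroethane it read 0.25, -0.04, -0.16 and -0.30, close to vehicle, where the main probe was lower in all 4 rats. Means for 1-Amino-2-methylanthraquinone and Tetracycline hydrochloride were 0.16 ± 0.63 and 0.07 ± 0.19 (SD, n = 4 each). Both sequences thus placed 1,2-Dichlorobenzene highest and monuron below vehicle. With its treated signal not well above background on 3 of 4 Hexachloroethane arrays, probe 704782 does not rank that compound.

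Mt1 varied more than most genes, both between compounds and between rats of a compound. The gene was taken up for ratios that were large and differed between compounds, so its high place by range was fixed by that choice. The medians of all genes also cover dimmer probes. The range of its 6 compound means was 2.98 on the log2 ratio, against a median range of 0.37 over 11507 genes, and 31 genes had a larger one. On the treated level its range was 3.64, and 20 genes exceeded it. The pooled SD between rats of a compound was 0.56, against a median of 0.10, and 0.939% of genes varied at least as much. This scatter was uneven: 0.591% of genes had an SD at least as large with 1,2,3-Trichloropropane, 0.556% with 1-Amino-2-methylanthraquinone and 0.574% with Tetracycline hydrochloride. The corresponding shares were 7.19% with monuron, 9.05% with Hexachloroethane and 12.2% with 1,2-Dichlorobenzene, where Mt1 differed less between rats.

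No other metallothionein of the list (6 names) matched a probe, so Mt2A, Mt3 and Mt4 are not analysed here. In the RefSeq order these lie next to Mt1 on one side, and their promoters of 250 bases held 4, 3 and 1 metal cores. Of the 8 genes on each side, 4 were tested: Psme3ip1, Cpne2 and Herpud1 on one side and Bbs2 on the other, chosen by position only. None of the 4 was called against vehicle with any compound, a call being an adjusted p under 0.05 (limma, Benjamini-Hochberg over all genes) with at least a 2-fold change. That rule called from 0.287% of all 11507 genes with Tetracycline hydrochloride to 2.13% with 1-Amino-2-methylanthraquinone. Herpud1, a gene of the endoplasmic reticulum stress response, averaged -0.52 with 1,2-Dichlorobenzene and -0.56 with 1,2,3-Trichloropropane, where Mt1 was highest, and 0.09 with Hexachloroethane. Bbs2, which acts in cilia, averaged 0.33 with 1,2,3-Trichloropropane and -0.49 with monuron.

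Genes that move and sense metals were then read beside Mt1, 21 of 59 listed being tested: 5 of 25 for zinc, 5 of 14 for copper and 11 of 20 for iron. Against vehicle the number called was 0 of 21 with 5 of the compounds and 1 of 21 with 1,2-Dichlorobenzene, where the rule called 1.59% of all genes. It called 0.912% with Hexachloroethane, 0.912% with 1,2,3-Trichloropropane and 1.40% with monuron. An adjusted p under 0.05 alone held for 43.4% of all genes with Hexachloroethane, 45.7% with 1,2,3-Trichloropropane, 58.8% with 1-Amino-2-methylanthraquinone, 46.1% with monuron, 51.8% with 1,2-Dichlorobenzene and 37.4% with Tetracycline hydrochloride, so a p without the fold is common here. The median change of the 5 zinc genes lay between -0.02 with 1,2-Dichlorobenzene and 0.14 with Hexachloroethane. Copper genes had medians from -0.08 to 0.21 and iron genes from -0.18 to 0.05, against medians of all genes near 0. Centring each array on its median in place of loess put the median of all genes between -0.34 and -0.21, and all these list medians then lay below 0.

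**Figure D3:**
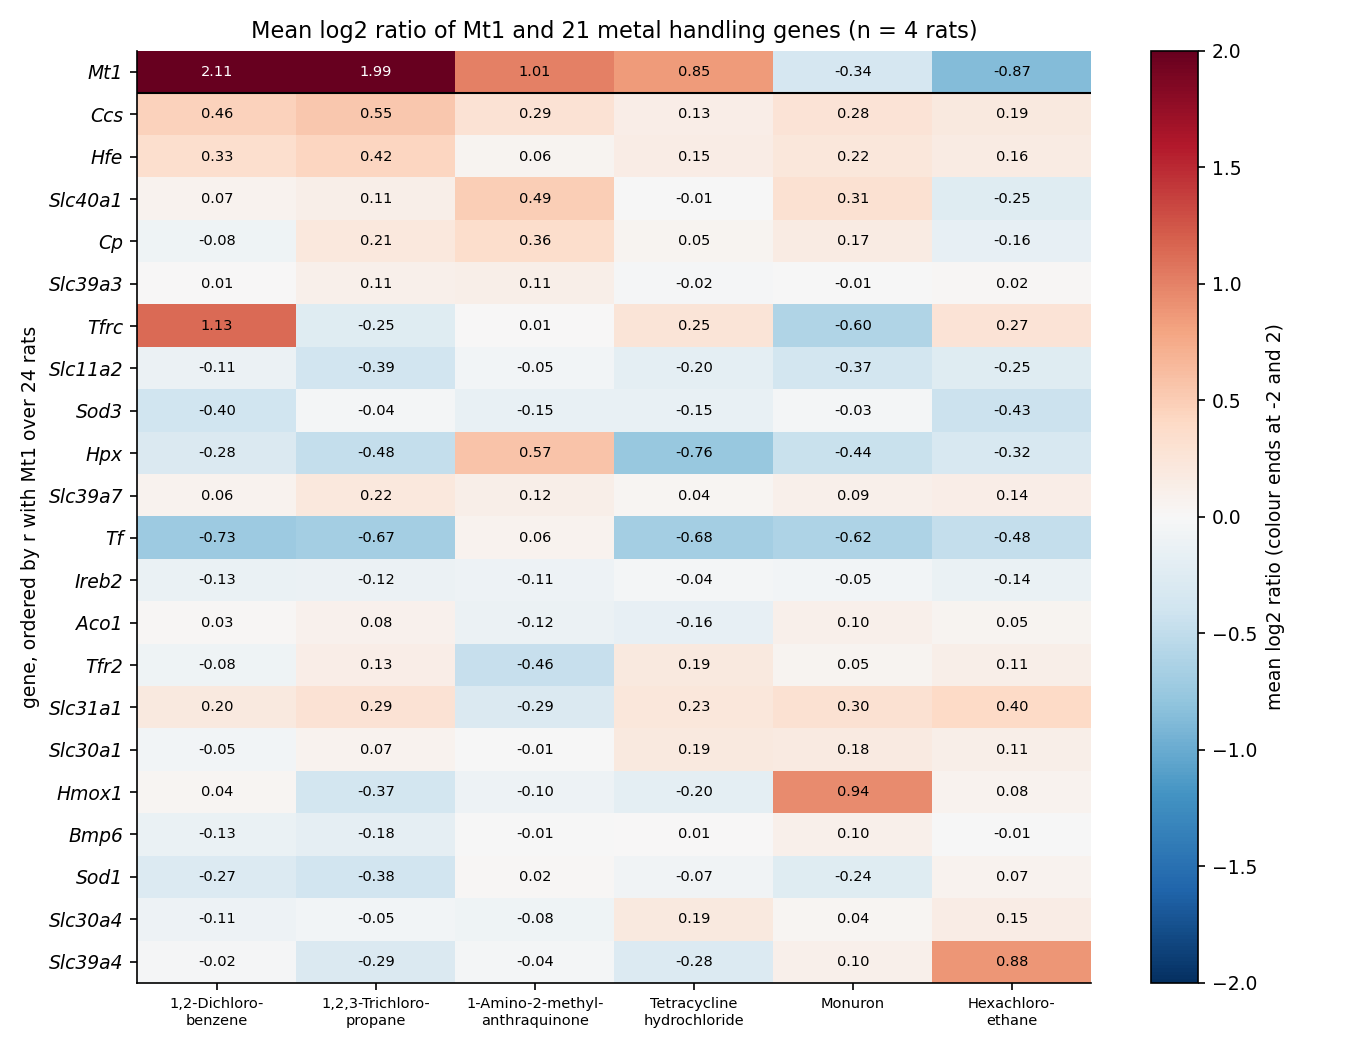
Mean log2 ratio over 4 rats, treated over vehicle, of Mt1 and 21 genes of zinc, copper and iron handling (rows) with each of 6 compounds (columns). Mt1 spans -0.87 to 2.11, while among the 21 genes the highest mean is 1.13, for Tfrc with 1,2-Dichlorobenzene, and the lowest is -0.76, for Hpx with Tetracycline hydrochloride.

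Among the zinc genes Slc39a4, an importer of zinc at the cell surface, was singled out after its values were seen. Its log2 ratio with Hexachloroethane was 0.95, 0.84, 0.89 and 0.82 in rats 1 to 4, a mean of 0.88 ± 0.06 (SD, n = 4; limma adjusted p = 4.43e-07), under the 2-fold limit. All 4 rats were above every rat of the other 5 compounds, and the difference from their mean was 0.98 (limma adjusted p = 1.46e-06). It was the reverse of Mt1 there, which was lowest with Hexachloroethane. With 1,2,3-Trichloropropane, where Mt1 was high, Slc39a4 read -0.34, 0.01, -0.29 and -0.53, and the rat with the least Mt1, rat 2, had the most Slc39a4. With 1-Amino-2-methylanthraquinone it read 0.23, -0.16, 0.21 and -0.44, and rat 4, highest in Mt1, was lowest. With Tetracycline hydrochloride it read -0.53, 0.01, -0.47 and -0.12, and there rat 2 was highest in both genes. With 1,2-Dichlorobenzene and monuron it averaged -0.02 ± 0.12 and 0.10 ± 0.13 (SD, n = 4 each). Median centring brought the mean with Hexachloroethane to 0.09 against vehicle and left 0.80 against the other compounds. Over 24 rats the ratio of Slc39a4 correlated with that of Mt1 at r = -0.74 (rho = -0.71), at -0.65 without the 2 rats farthest from the median of Mt1, and at -0.62 after each compound's mean was taken out. These points share the vehicle pool of each slide. With treated levels in place of ratios the correlation was -0.82.

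The exporter Slc30a1, itself a known target of Mtf1, had means between -0.05 with 1,2-Dichlorobenzene and 0.19 with Tetracycline hydrochloride, and its correlation with Mt1 was -0.37. Its promoter held 2 metal cores. Slc30a4, another exporter, had means between -0.11 and 0.19 and a correlation of -0.59. Neither moved over a range like that of Mt1. Of 17 promoters of metal genes in the RefSeq table, 6 held at least 1 core, the most being 4 in Slc39a7, and no entry for Slc39a4 was used here.

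Of the copper genes, Ccs was also singled out after its values were seen. It is the chaperone that loads copper into the superoxide dismutase Sod1. It averaged 0.55 ± 0.04 with 1,2,3-Trichloropropane and 0.46 ± 0.07 with 1,2-Dichlorobenzene (SD, n = 4 each), the compounds with the highest Mt1. With 1-Amino-2-methylanthraquinone, monuron, Hexachloroethane and Tetracycline hydrochloride it averaged 0.29, 0.28, 0.19 and 0.13. It was thus above vehicle in all 6 means, and below vehicle in all 6 under median centring, where the highest means were -0.09 with 1,2-Dichlorobenzene and -0.10 with 1,2,3-Trichloropropane. The difference from the other compounds was 0.28 with 1,2,3-Trichloropropane (limma adjusted p = 2.81e-05), under the 2-fold limit. Over 24 rats Ccs correlated with Mt1 at r = 0.69 (rho = 0.66), at 0.65 on the treated level, and at 0.46 after compound means were taken out. Sod1 correlated with Mt1 at -0.56 and read lowest, -0.38 ± 0.04 (SD, n = 4), with 1,2,3-Trichloropropane. The copper importer Slc31a1 averaged from -0.29 with 1-Amino-2-methylanthraquinone to 0.40 with Hexachloroethane and correlated with Mt1 at -0.32.

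**Figure D4:**
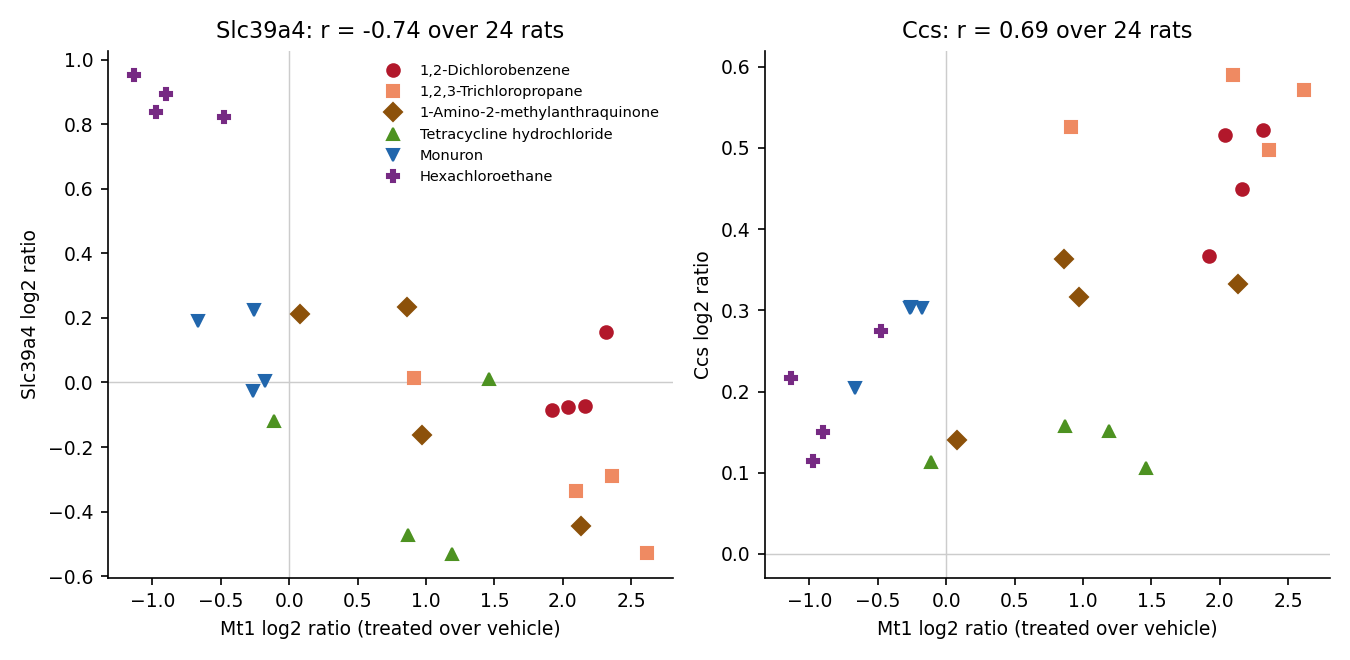
Log2 ratio of Mt1 against the log2 ratio of Slc39a4 and of Ccs in 24 rats, coloured by compound. Rats of Hexachloroethane lie apart at high Slc39a4 (0.82 to 0.95) and low Mt1, and Ccs is highest in rats of 1,2,3-Trichloropropane and 1,2-Dichlorobenzene; points share the vehicle pool of their slide.

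Of the iron genes, Tfrc, the receptor that takes up transferrin-bound iron, rose with 1,2-Dichlorobenzene. Its ratio was 1.11, 1.36, 1.24 and 0.79 in the 4 rats, a mean of 1.13 ± 0.25 (SD, n = 4; limma adjusted p = 9.87e-07). With the mean of all its probes the change was 0.95, and with median centring 0.71, both under the 2-fold limit. Tfrc did not track Mt1 elsewhere: with 1,2,3-Trichloropropane it averaged -0.25 ± 0.37 (SD, n = 4), and over 24 rats the correlation was 0.26. Against the other 5 compounds 3 metal genes were called, Tfrc with 1,2-Dichlorobenzene, Hmox1 with monuron and Hpx with 1-Amino-2-methylanthraquinone, where this contrast called 0.521%, 0.608% and 1.29% of all genes. It called none of the 21 with the other 3 compounds, against 0.634% of all genes with Hexachloroethane, 0.408% with 1,2,3-Trichloropropane and 0.574% with Tetracycline hydrochloride. Hmox1, which breaks down haem, read 1.52, 0.90, 0.75 and 0.60 with monuron, a mean of 0.94 ± 0.40 (SD, n = 4) against vehicle and 1.05 above the other compounds (limma adjusted p = 5.86e-05). That second call was lost without rat 1 or with the mean of its probes (0.94). Hpx, the plasma protein that binds haem, averaged 0.57 ± 0.44 (SD, n = 4) with 1-Amino-2-methylanthraquinone, 1.03 above the others (limma adjusted p = 1.20e-06), and -0.75 against vehicle under median centring. Its call against the others was lost without rat 2 or rat 4, and under median centring.

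Genes known to answer to the other signals that act on Mt1 were read next; some belong to several lists. Targets of the glucocorticoid receptor were called in 1 direction only. Of 17 tested, 8 fell with 1,2,3-Trichloropropane (median -0.80), 6 with monuron (-0.78), 6 with 1,2-Dichlorobenzene (-0.67), 5 with 1-Amino-2-methylanthraquinone (-0.43) and 2 with Hexachloroethane (-0.38). With Tetracycline hydrochloride 0 of 17 were called and the median was -0.08. None rose, and the shares of all genes called lower were 0.617%, 0.660%, 0.808%, 0.869%, 0.435% and 0.130% in that order of compounds. Sds, which degrades serine, fell by 2.41 ± 0.25 (SD, n = 4; limma adjusted p = 2.95e-06) and Tat, which degrades tyrosine, by 2.21 ± 1.26 (SD, n = 4; limma adjusted p = 8.99e-05) with 1,2,3-Trichloropropane. Sgk1, a kinase induced by glucocorticoids, fell by 1.51 ± 0.22 (SD, n = 4; limma adjusted p = 8.65e-05) with 1,2-Dichlorobenzene. Mt1 was highest with these same compounds and averaged 1.01 ± 0.85 (SD, n = 4) with 1-Amino-2-methylanthraquinone. There the called members of this list were below vehicle. With Hexachloroethane and monuron both Mt1 and the called members were below vehicle. Whether glucocorticoids had a part in the Mt1 values was not tested.

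Acute phase genes, which the liver makes in inflammation, were called with 3 compounds (21 tested). With 1-Amino-2-methylanthraquinone, where 1.26% of all genes were called higher, 2 rose: Lbp, which binds endotoxin, by 2.00 ± 1.09 and the chemokine Cxcl1 by 1.03 ± 0.84 (SD, n = 4 each; limma adjusted p = 2.14e-07 and 0.010). With 1,2,3-Trichloropropane Cxcl1 rose by 1.65 ± 1.16 (SD, n = 4) and haptoglobin, Hp, fell by 1.05 ± 0.15 (SD, n = 4), where 0.295% of all genes were called higher and 0.617% lower. With 1,2-Dichlorobenzene, where Mt1 was highest and 0.808% of all genes were called lower, 3 fell and none rose: Hp by 1.23 ± 0.09, Itih4 by 1.03 ± 0.20 and complement C3 by 1.02 ± 0.14 (SD, n = 4 each). The other 3 compounds had 0 of 21 called. Medians lay between -0.46 with 1,2-Dichlorobenzene and 0.12 with 1-Amino-2-methylanthraquinone, and under median centring all 6 lay below 0.

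Targets of Nrf2, the factor that answers to oxidative and electrophilic stress, were called higher with all 6 compounds and lower with none (23 tested). There were 11 with 1,2-Dichlorobenzene (median 0.99), 7 with 1-Amino-2-methylanthraquinone (0.46), 6 with monuron (0.63), 6 with 1,2,3-Trichloropropane (0.51), 6 with Hexachloroethane (0.35) and 1 with Tetracycline hydrochloride (0.07). The shares of all genes called higher were 0.782%, 1.26%, 0.739%, 0.295%, 0.478% and 0.156% in that order. Under median centring the medians were below 0 except with 1,2-Dichlorobenzene (0.35). Gsta3, a glutathione transferase, rose by 5.25 ± 0.06 with monuron, 4.99 ± 0.37 with 1,2-Dichlorobenzene, 4.58 ± 0.49 with 1,2,3-Trichloropropane, 4.22 ± 0.69 with 1-Amino-2-methylanthraquinone and 2.38 ± 0.13 with Hexachloroethane (SD, n = 4 each). With Tetracycline hydrochloride Gsta3 was the 1 member called and rose by 1.54 ± 1.13 (SD, n = 4), with wide scatter between rats. This gene was thus higher with monuron and Hexachloroethane, where Mt1 lay below vehicle, as well as with compounds where Mt1 lay above it. Gpx2, a glutathione peroxidase, rose by 2.78 ± 0.28 with 1-Amino-2-methylanthraquinone, 2.52 ± 0.16 with monuron, 2.40 ± 0.37 with 1,2-Dichlorobenzene, 2.30 ± 0.36 with Hexachloroethane and 1.12 ± 0.13 with 1,2,3-Trichloropropane (SD, n = 4 each). The pi class transferase Gstp1 rose by 4.64 ± 0.39 with 1,2-Dichlorobenzene and 2.14 ± 0.59 with 1,2,3-Trichloropropane (SD, n = 4 each), the compounds with the highest Mt1.

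Markers of other liver cells moved with some compounds, and their part in the Mt1 values was not tested. Of 6 bile duct markers tested, 4 rose with 1-Amino-2-methylanthraquinone, where 1.26% of all genes were called higher: Cldn7 by 3.39 ± 0.76, Epcam by 2.11 ± 0.27, Spp1 by 1.72 ± 0.20 and Krt19 by 1.47 ± 0.35 (SD, n = 4 each). Krt7 of the same list read -0.03 ± 0.23 (SD, n = 4). The summed treated level of the 6 (log2) was 13.57 to 14.49 there and 12.29 to 13.10 with the other 5 compounds. Of 3 erythroid markers tested, 3 rose with monuron, where 0.739% of all genes were called higher, Hbb by 1.64, Alas2 by 1.13 and Ahsp by 1.05, with a summed level of 15.87 to 16.38 against 13.84 to 15.39 elsewhere. The erythroid marker Epb42 was well above background on none of the arrays. With 1,2-Dichlorobenzene Cldn7 rose by 1.05 ± 0.30 (SD, n = 4), while the other bile duct markers lay between -0.57 (Spp1) and 0.93 (Epcam). With 1,2-Dichlorobenzene and 1,2,3-Trichloropropane the hepatocyte marker Serpina1 fell by 1.10 and 1.06. The other hepatocyte markers lay between -0.73 (Tf) and 0.23 (Cyp2e1) with the first, and between -0.67 (Tf) and 0.14 (Cyp2e1) with the second. Of the macrophage markers 1 of 6, Marco, rose with monuron (1.07 ± 0.45, SD, n = 4). Against vehicle 0 of 4 endothelial, 0 of 8 stellate, 0 of 6 lymphocyte and 0 of 1 neutrophil markers were called with any compound. The rule called 0.287% to 2.13% of all genes by compound, so 0 among so few markers does not show that they were unchanged. With 1-Amino-2-methylanthraquinone the stellate markers Dcn, Col1a1 and Reln read 0.88 ± 0.19, 0.72 ± 0.16 and -0.69 ± 0.08 (SD, n = 4 each), under the 2-fold limit. Against the other 5 compounds, the stellate cell and fibroblast markers Lum and Dcn, which encode matrix proteoglycans, fell by 1.01 and 1.05 with Hexachloroethane. There Mt1 was lowest and 0.634% of all genes were called. The rest of that list did not follow them and lay between -0.11 (Pdgfra) and 0.38 (Col1a2). Dcn rose by 1.02 with 1-Amino-2-methylanthraquinone in that contrast, where 1.29% were called, and the rest of the list lay between -0.50 (Reln) and 0.89 (Col1a1). The summed level of the 8 hepatocyte markers ranged from 20.07 to 20.55 over all 24 rats. The brightest members weigh most in such a sum, so it can stay level while single markers such as Serpina1 fall.

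The genes whose log2 ratios were most like those of Mt1 over the 24 rats were picked by Pearson's r among 4760 genes with a settled symbol. These picks are a description, and their points share the vehicle pool of each slide. Over all these genes r had a median of 0.01, and the central 95% lay between -0.64 and 0.65. The 10 highest were Rnf128 (0.87), Fchsd2 (0.87), Ccny (0.86), Sun2 (0.83), Pcsk6 (0.81), Nucb2 (0.81), Pias1 (0.80), Cby1 (0.80), Adgrl2 (0.79) and Mllt6 (0.79). Rnf128, a ubiquitin ligase, averaged 0.51 with 1,2,3-Trichloropropane, 0.35 with 1,2-Dichlorobenzene and -0.25 with Hexachloroethane, a far narrower span than that of Mt1. Fchsd2, which acts in membrane trafficking, ran from -0.47 with Hexachloroethane to 0.42 with 1,2-Dichlorobenzene. Pcsk6, a protease that cleaves precursor proteins, averaged 0.99 with 1,2-Dichlorobenzene and 0.65 with 1,2,3-Trichloropropane. On the treated level r fell to 0.33 for Ccny, 0.39 for Pias1 and 0.22 for Adgrl2 and was 0.84 for Fchsd2. Part of the likeness was thus in the ratio and not in the treated level. Of the 9 of these 10 genes with a promoter in the RefSeq table, 4 held a metal core.

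The 5 lowest were Psmc1 (-0.85), Timm29 (-0.84), Psmc5 (-0.83), Tmtc4 (-0.82) and Mrps34 (-0.81). Psmc1 and Psmc5 are ATPases of the proteasome cap, and Psmc1 averaged 0.60 with Hexachloroethane, where Mt1 was lowest. Tmtc4, of the endoplasmic reticulum, averaged 0.85 with Hexachloroethane, -0.34 with 1,2,3-Trichloropropane and -0.41 with 1,2-Dichlorobenzene. After each compound's mean was taken out, so that only rats of the same compound were compared, genes among the highest were Glyr1 (0.75), Hpcal1 (0.74), Fkbp2 (0.73) and Epcam (0.72), with the central 95% of genes between -0.55 and 0.57. Over all rats, without that step, Epcam had an r of 0.10 and Fkbp2 -0.37. Pcsk6 (0.72) and Sun2 (0.70) were the highest of the first 10 genes within compounds.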

How the data were processed

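The deposited scanner files held, per the file headers, a spot per line with mean signal and median background of each dye as linear intensity and a log10 ratio; the deposited series matrix held a log2 ratio. Signals were read with Agilent Feature Extraction 9.1.3.1, per the submitters' processing notes. RNA was isolated with RNeasy kits, amplified and labelled, per the labels' protocols. The main values used limma 3.58.1 in R 4.3.3 with data.table (version 1.17.8): normexp (offset 50), loess within arrays, control and outlier spots left out, 2 spots averaged, sign set to treated over vehicle. Ratios of all 11507 genes (brightest of 16085 probes kept) were fitted with 6 compound means (18 residual degrees of freedom) and called at adjusted p under 0.05 and at least 2-fold. Tests were checked on simulated data. P-values measure only the spread between these samples. Levels of each channel came from the loess ratios and the mean of both dyes scaled between arrays (Aquantile). Members and lists were chosen with earlier results of these data known. Named were Mt1, up to 4 called members per list and compound, the 10 highest and 5 lowest genes by r, the 5 highest within compounds (1 of them is not reported here), neighbours by position, and genes said to be singled out. Alternatives covered scaling, background, probe choice, the dim-probe filter, the scanner's and series' ratios and each rat left out. Probes of bacterial and phage sequence (11) were left out.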

Additional observations from a re-analysis of the deposited data

Results flagged for a closer look

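No group of 4 Mt1 ratios had a rat apart by Dixon's rule, in which the gap of the highest or lowest rat is divided by the group's range. Of 97 groups read for called genes, 6 did, and chance gives about 1 in 20. Dusp1, a phosphatase, had a gap of 0.853 with Hexachloroethane, where it read -2.26, -2.20, -1.96 and -0.16. Phgdh, of serine synthesis, had 0.856 with Hexachloroethane, where 1 rat read -0.25 and the others 1.82 to 2.17. Serpina1 had 0.857 with 1,2,3-Trichloropropane, where 1 rat read -1.22 and the others -1.03 to -0.99. Aldh1a1, an aldehyde dehydrogenase, had 0.896 with 1-Amino-2-methylanthraquinone, where 1 rat read 2.82 and the others 2.31 to 2.36. Angptl4, an inhibitor of lipoprotein lipase, had 0.956 there, where 1 rat read -1.12 and the others -1.06. Sgk1 had 0.82904 with monuron, where 1 rat read -2.27 and the others -1.13 to -0.89.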

How the results depend on the processing

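The mean log2 ratio of Mt1 kept its sign with all 6 compounds under every alternative run. Median centring gave -1.47 with Hexachloroethane, 1.35 with 1,2,3-Trichloropropane, 0.21 with 1-Amino-2-methylanthraquinone, -0.92 with monuron, 1.55 with 1,2-Dichlorobenzene and 0.33 with Tetracycline hydrochloride. Its means with 1-Amino-2-methylanthraquinone and Tetracycline hydrochloride were smaller than the SD between rats in the main values, 0.85 and 0.69. The unscaled channels, where treated averaged below vehicle with both of these compounds, were not among the alternatives. The mean of all kept probes gave -0.64 with monuron and 1.90 with 1,2-Dichlorobenzene. On the treated level the difference from the other 5 compounds was -2.72 with Hexachloroethane and -0.74 with monuron. On the ratio it was -2.0 and -1.36. Leaving out each rat gave 2.04 to 2.17 with 1,2-Dichlorobenzene, 1.79 to 2.36 with 1,2,3-Trichloropropane, 0.64 to 1.32 with 1-Amino-2-methylanthraquinone, 0.65 to 1.17 with Tetracycline hydrochloride, -0.39 to -0.23 with monuron and -1.0 to -0.78 with Hexachloroethane.

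Counts follow the order of compounds in the sentence on median centring, and 105, 105, 245, 161, 183 and 33 genes were called against vehicle. Median centring called 650, 442, 1083, 470, 461 and 183, of which 24, 37, 114, 47, 63 and 19 were higher, against 55, 34, 145, 85, 90 and 18. The scanner's log ratio called 293, 284, 548, 306, 349 and 99, and the series table's values 296, 277, 535, 297, 343 and 111; with Hexachloroethane 38.6% and 38.2% of these were higher, against 52.4%. No background correction called 146, 118 and 19 with 1-Amino-2-methylanthraquinone, 1,2-Dichlorobenzene and Tetracycline hydrochloride. Against the other 5 compounds 73, 47, 149, 70, 60 and 66 were called, with the scanner's ratio 187, 107, 367, 128, 140 and 175, with the series table's values 182, 111, 364, 127, 132 and 169, and without background correction 30, 77, 46 and 36 with the compounds from 1,2,3-Trichloropropane to 1,2-Dichlorobenzene in that order. Leaving out each rat gave 91 to 121, 90 to 129, 228 to 299, 145 to 175, 165 to 235 and 20 to 56 against vehicle (20 without rat 1 and 56 without rat 4 of Tetracycline hydrochloride), and 67 to 87, 35 to 57, 118 to 202, 60 to 67, 47 to 85 and 62 to 76 against the others. Against the others the share called higher with Hexachloroethane was 42.8% (scanner) and 41.2% (series table) against 53.4%; median centring gave 52.6% against 71.1% with 1-Amino-2-methylanthraquinone, 69.2% against 56.7% with 1,2-Dichlorobenzene and 61.5% against 43.9% with Tetracycline hydrochloride. The cause of these shifts was not tested.

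Of the metal genes, median centring called 4, 3, 4, 4, 3 and 2 against vehicle. The scanner's ratio and the series table each called 1 with 1,2,3-Trichloropropane, and the mean of all probes called 0 with 1,2-Dichlorobenzene. Against the others the scanner's ratio called 1 with 1,2,3-Trichloropropane, median centring 0 with 1-Amino-2-methylanthraquinone and the mean of probes 0 with monuron. Leaving out rats gave 0 to 1 against vehicle with monuron (1 without rat 3 or rat 4), and against the others 0 to 1 with 1-Amino-2-methylanthraquinone (0 without rat 2 or rat 4) and 0 to 1 with monuron (0 without rat 1). Of the settings tried on other named genes, 743 kept the call, 60 lost it and 0 reversed it. The replicate block called 106 genes with Hexachloroethane against 105; rat numbers did not pair the rats, since same-numbered rats correlated between -0.26 and 0.39 and 8 of 24 correlated best with their own number. Scan day as a random block was not run, since each compound was scanned on 1 day. The 4 rats and 1 vehicle pool per compound limit precision.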

Other observations

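Genes of the amino acid and endoplasmic reticulum stress response (16 tested) were called higher with 4 compounds: 4 with 1,2-Dichlorobenzene, 4 with 1,2,3-Trichloropropane, 2 with Hexachloroethane and 1 with monuron, and 0 with the others. The shares of all genes called higher with those 4 were 0.782%, 0.295%, 0.478% and 0.739%. Phgdh rose by 2.64 ± 0.21 with 1,2-Dichlorobenzene and by 1.98 ± 0.41 with 1,2,3-Trichloropropane, the compounds with the highest Mt1, and by 1.44 ± 1.14 with Hexachloroethane, which had the lowest (SD, n = 4 each). Asns, the asparagine synthetase, also rose by 1.58 ± 0.71 (SD, n = 4) with Hexachloroethane. Of 16 genes of fasting and growth hormone response, 3 were called with 1,2,3-Trichloropropane, 2 with 1-Amino-2-methylanthraquinone and 2 with 1,2-Dichlorobenzene, where 0.912%, 2.13% and 1.59% of all genes were. With 1,2,3-Trichloropropane Igfbp1 and Lpin1 fell by 1.69 and 1.36, with 1-Amino-2-methylanthraquinone Angptl4 and Fasn fell by 1.08 and 1.07, and with 1,2-Dichlorobenzene Socs2 fell by 1.25. The hormone Fgf21 rose by 1.5 ± 0.38 with 1,2,3-Trichloropropane and by 1.4 ± 0.62 with 1,2-Dichlorobenzene (SD, n = 4 each).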
